A study of Mus musculus with 21 samples.

Results

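The 10 genes described are those of major histocompatibility complex (MHC) class II antigen presentation in the mouse, namely H2-Aa, H2-Ab1, H2-Eb1, Cd74, Ciita, H2-DMa, H2-DMb1, H2-DMb2, H2-Oa and H2-Ob. They were chosen by symbol, and all 10 were listed in each of the 4 deposited tables, which hold 19241 genes for tumours and 13513 and 13636 genes for hematopoietic stem cells (HSC). None of the 10 passed the threshold of limma, a linear-model test across all genes, in any of 8 comparisons of sedentary, physically active and transplanted mice. The count tests edgeR and DESeq2 each called 4 of them in transplant against sedentary HSC, with 19.3% and 23.8% of all genes called. DESeq2 also called 4 in transplant against active HSC (8.32% of genes), which depended on 1 library. Levels of the 10 genes differed widely between single libraries. In tumours they moved largely together, apart from H2-Oa. In HSC, H2-DMb2, H2-Oa, H2-DMa and H2-Ob followed Cd74 loosely or not at all.

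MHC class II molecules display peptides from endosomes on the cell surface, where CD4+ T cells read them, and they are made mainly by dendritic cells, macrophages and B cells. An alpha and a beta chain form the molecule (H2-Aa with H2-Ab1, and H2-Eb1 as the beta chain of the H2-E molecule), and the invariant chain Cd74 fills its groove and guides it to the endosome. There H2-DM, built from H2-DMa with H2-DMb1 or H2-DMb2, exchanges the remnant of the invariant chain for peptide, and H2-O, built from H2-Oa and H2-Ob, restrains H2-DM, chiefly in B cells. The coactivator Ciita switches the set on through factors bound to conserved boxes in the promoters, and interferon gamma induces Ciita in many other cell types. In tumours these genes report largely on antigen-presenting cells, while mouse HSC are known to carry a low amount of class II.

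All libraries came from mice of the genotype MMTV-PyMT, in which the promoter of the mouse mammary tumour virus drives the polyoma middle T oncogene in mammary epithelium. The series asks how physical activity bears on the immune response to breast cancer. Mammary tumours were taken from sedentary and from physically active mice at week 12 and at week 18. Freshly sorted HSC of sedentary mice and of active ones were taken at week 12. A further HSC group of week 14 came from hosts that were sedentary and had received cells of a physically active mouse (transplant HSC). The labels give neither the form of activity, the sort gate, nor the conditioning of the transplanted hosts. Each of the 7 groups had 3 libraries, labelled as biological replicates. The tumours are bulk tissue, in which fewer cells of a type and less RNA per cell cannot be told apart.

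Tumour libraries held 20838963 to 28973775 reads. In HSC, replicate 3 of each group held 58500940 to 72417315 reads and carries another style of name, and the other libraries held 16406889 to 24574563 in the tables they are taken from. The active HSC replicate 2 differed between the HSC tables in 13086 of 13380 shared genes, so at most 1 of its columns can be that library. The column of the table of sedentary and active HSC is used unless said otherwise, and values from the other column are given where they move a result. Markers of mammary epithelium were all listed in tumours (6 of 6, summed normalized value 54791 to 134433), and those of HSC were all listed in the sorted cells (10 of 10, 16915 to 29147). In the tumours, on their own scale, the HSC list (9 of 10 listed) summed to 7286 to 24171. Its sum therefore does not tell the tissues apart. The sorted cells also held a neutrophil list (10 markers) summing to 76151 to 111156 in sedentary, 139563 to 412617 in active and 285814 to 375319 in transplant HSC. The highest of these, active replicate 2, held 79679 in its other column. Mpo was the largest gene of this list, at 54105 to 78608 in sedentary, 102513 to 204236 in active and 188777 to 248522 in transplant HSC. Retnlg, of the same list, stood at 0 in sedentary, 0 to 56.8 in active and 1.69 to 7.60 in transplant HSC. The sum is therefore not a count of neutrophils. In the tumours, active replicate 3 of week 12 stood apart by its lymphocyte genes, with B cell markers summing to 28402 against 63.4 to 226.6 in the other 11 tumours.

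The promoters were searched for the boxes through which Ciita acts. Of the 5 that held the whole module described below, 4 are shown here because they let the shared control element be read directly. RefSeq (GRCm38.p6, which has the coordinates of mm10, the build named in the submitters' processing notes) held a promoter window for 7 of the 10 genes, all but H2-Ab1, Cd74 and Ciita. Capitals mark 3 short runs of letters. The first is AAC, which opens an X-box-like stretch. The next closes that stretch and reads TGATG in the first, second and last gene below, while it reads TGACG in H2-Aa. The last run is the Y box, TGATTGG. Each sequence runs 5′ to 3′ on the strand of its gene and overlaps no annotated exon of the 10 genes. That of H2-DMb2 lies just ahead of the transcript used here for its length, which begins at 34145236, and within an intron of a longer transcript of the gene.
H2-DMb2 (chr17:34145119-34145235, plus strand): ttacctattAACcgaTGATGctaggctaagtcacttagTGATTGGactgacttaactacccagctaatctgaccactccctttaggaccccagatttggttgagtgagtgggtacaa
H2-Ob (chr17:34238775-34238902, plus strand): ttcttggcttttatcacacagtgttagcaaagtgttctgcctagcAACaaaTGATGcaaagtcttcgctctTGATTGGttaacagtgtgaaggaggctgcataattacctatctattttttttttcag
H2-Aa (chr17:34287824-34287953, minus strand): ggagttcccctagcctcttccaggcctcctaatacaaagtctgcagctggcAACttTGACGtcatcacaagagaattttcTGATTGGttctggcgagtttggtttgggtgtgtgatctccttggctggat
H2-Eb1 (chr17:34305737-34305866, plus strand): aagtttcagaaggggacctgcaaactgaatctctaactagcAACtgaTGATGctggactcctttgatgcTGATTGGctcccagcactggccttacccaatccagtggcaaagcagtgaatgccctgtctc
The letters searched for were chosen after these promoters had been read. Within 250 bases before the start, on either strand, TGATTGG was found in 6 of 7 genes, all but H2-DMa, and in 7.23% of 32851 windows of the same length. The whole module was the X-box-like stretch, with a gap of 2 to 3 bases between its parts, followed after 8 to 25 bases by the Y box. It was found in 5 of the 7 (H2-Aa, H2-Eb1, H2-DMb1, H2-DMb2 and H2-Ob) and in 10 of all windows, or 0.0304%. In H2-Oa the opening letters AAC lay ahead of the Y box at a like distance but without the middle run. That looser arrangement, with 15 to 40 bases between the opening letters and the Y box, was held by 6 of the 7 and by 2.01% of windows. The Y box lay 45 bases before the start of H2-Oa and 92 before that of H2-DMb2, with the other 4 genes between. These matches describe letters only, and no binding was measured.

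In the annotation (GENCODE M21, GRCm38), 8 of the genes lie on chromosome 17 within 224335 bases, in the order H2-Oa (34092340 to 34095234), H2-DMa (34119541 to 34139101), H2-DMb2 (34143307 to 34151555), H2-DMb1 (34153072 to 34160230), H2-Ob (34238903 to 34254414), H2-Ab1 (34257689 to 34269419), H2-Aa (34282744 to 34287823) and H2-Eb1 (34305867 to 34316674). Of these, H2-Aa alone is on the minus strand. The neighbours H2-DMb1 and H2-DMb2 are near copies: 27.2% of the 50-base windows of the H2-DMb1 transcript are also in H2-DMb2, and reads there could have been split between them or dropped. No other pair of the 10 shared such a window.

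Levels between genes and tissues are compared as RPKM (reads scaled to transcript length and library size), over the libraries of a tissue. In tumours the classical chains and the invariant chain led, with medians of 432 for Cd74, 247 for H2-Ab1, 196 for H2-Aa and 158 for H2-Eb1. The peptide editor came next, at 20.3 for H2-DMb1 and 13.3 for H2-DMa, then Ciita at 3.96, and H2-DMb2, H2-Oa and H2-Ob were lowest at 1.68, 0.572 and 0.500. In HSC the order was different, with Cd74 at 29.6 followed by H2-DMa at 12.0, ahead of H2-Ab1 at 6.45, H2-DMb1 at 4.70, H2-Aa at 3.82 and H2-Eb1 at 2.82. The inhibitor gene H2-Oa stood at 2.06 in HSC, H2-Ob at 0.870, Ciita at 0.812 and H2-DMb2 at 0.439.

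The gap between tissues therefore depended on the gene. The median in tumours was 51.4 times that in HSC for H2-Aa, 38.3 times for H2-Ab1, 56.0 times for H2-Eb1 and 14.6 times for Cd74 (chromosome 18, 60803848 to 60812652), and for these 4 no tumour overlapped any HSC library. For Ciita (chromosome 16, 10480059 to 10528418) the ratio was 4.88, for H2-DMb1 4.33 and for H2-DMb2 3.84, with overlap. H2-DMa was nearly level, with a ratio of 1.11. H2-Oa stood at 0.152 to 0.926 RPKM in 11 tumours against 1.77 to 2.90 in HSC, with active replicate 3 of week 12 as the exception at 22.0. In the other column of active HSC replicate 2 it was 0.853, inside the range of the tumours. Tissue, extraction kit and sort differ together between these libraries, so their parts cannot be told apart and no test was made.

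Across the 7 groups, the mean RPKM of Cd74 was 430 ± 148 (SD, n = 3) in sedentary and 710 ± 415 in active tumours at week 12. At week 18 it was 431 ± 308 and 317 ± 127, and in HSC it was 10.5 ± 8.86 in sedentary, 28.4 ± 8.24 in active (20.6 ± 8.56 with the other column of replicate 2) and 44.3 ± 20.9 in transplant cells. The order of group means ran from active tumours of week 12 to sedentary HSC for 7 of the 10 genes, and the exceptions were H2-DMa, H2-Oa and H2-Ob. Neighbours in that order mostly overlapped: of 6 neighbouring pairs, none was apart for H2-DMa and H2-DMb2, 1 for H2-Aa, H2-Eb1, Cd74, Ciita, H2-Oa and H2-Ob, 2 for H2-Ab1 and 3 for H2-DMb1. With the other column it was 2 for H2-Aa, Cd74 and H2-DMb1. For Cd74, H2-Aa and H2-Eb1 the pair apart in the column used was active tumours of week 18 and transplant HSC, which is the step between tissues.

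**Figure D1:**
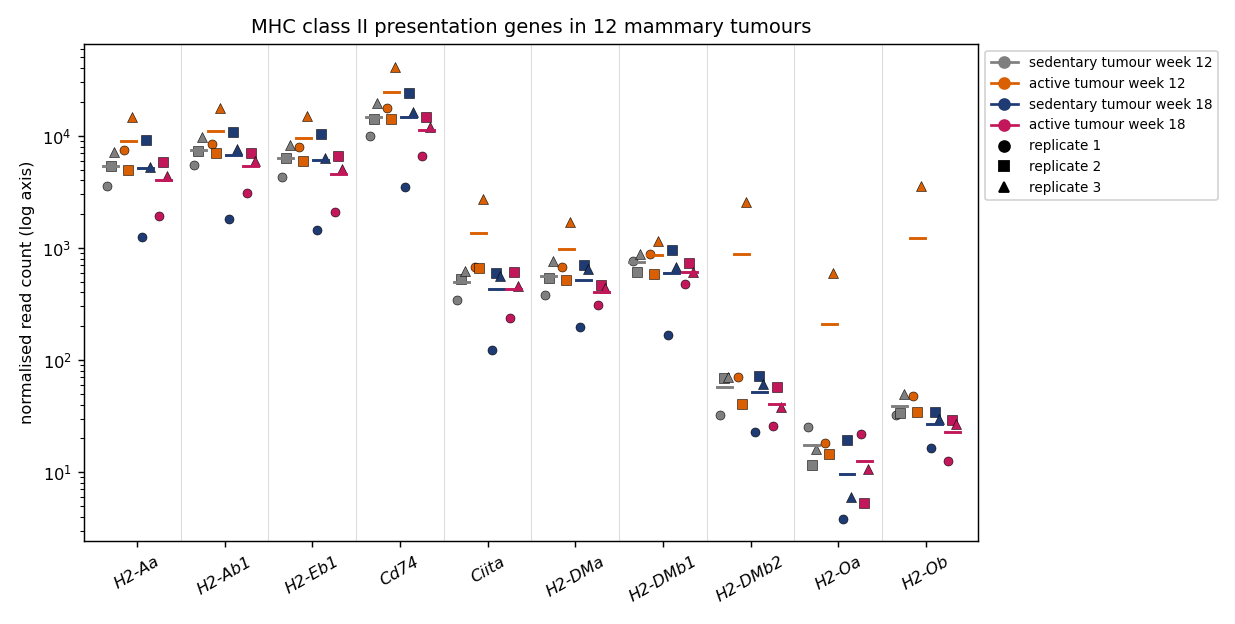
Normalized read counts of the 10 class II genes (log axis) in the 12 tumours, 1 point per library, by activity and week, with bars at the group means. Active replicate 3 of week 12 is the highest library for every gene, and for H2-DMb2, H2-Oa and H2-Ob it lies far above the other 11.

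At week 12 the whole set was nominally higher in tumours of active mice, and none of it changed by limma (adjusted p = 0.970 for each of the 10). The normalized read count of Cd74 was 9999, 14097 and 19668 in the sedentary tumours and 17805, 14260 and 41441 in the active ones. Sedentary replicate 3 lay above 2 of the 3 active tumours, so the groups overlapped. The means were 14588 ± 4853 and 24502 ± 14777 (SD, n = 3), a log2 fold change of 0.64 ± 0.49 (SE). H2-Ab1 stood at 5452, 7307 and 9795 in sedentary and 8398, 6959 and 17705 in active tumours, with a log2 fold change of 0.47 ± 0.43. Its groups also overlapped, and the same held for H2-Aa (0.65 ± 0.49) and H2-Eb1 (0.54 ± 0.43).

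The coactivator Ciita measured 340, 527 and 619 in sedentary tumours and 673, 657 and 2711 in active ones. It was the 1 gene of the 10 whose active values all lay above the sedentary ones, a pattern shown by 4.36% of the genes tested, and its log2 fold change was 1.14 ± 0.63. Over the 10 genes the median log2 fold change was 0.65 against 0.01 for all genes. No member had an unadjusted p under 0.05, which 4.09% of genes had, and 0.517% of genes passed the adjusted threshold (99 of 19162). By edgeR and DESeq2, count tests run on the recovered reads, 0 of the 10 passed as well.

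The genes of the H2-O inhibitor and of the second H2-DM beta chain showed a different pattern at week 12, set by 1 tumour. H2-Ob measured 32.4, 33.7 and 49.6 in sedentary tumours and 47.4, 34.0 and 3575 in active ones. H2-Oa measured 25.2, 11.6 and 15.9, then 18.2, 14.4 and 593. H2-DMb2 measured 32.4, 68.5 and 70.2, then 70.2, 40.2 and 2551. In each case active replicate 3 was the high library, and the other 2 active tumours lay within the sedentary range. The log2 fold changes of 2.23 ± 1.85, 1.66 ± 1.49 and 1.83 ± 1.63 became 0.08, -0.043 and -0.020 without that tumour.

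The rest of the set was also highest in this tumour, but by less. H2-DMa reached 1714 there against 677 and 514 in the other active tumours, and H2-DMb1 reached 1158 against 876 and 583. The median log2 fold change of the 10 genes was 0.10 without it, against 0.65 with it. All 10 B cell markers, all 10 T cell markers and all 5 markers of lymph node stroma were listed. In this tumour they summed to 28402, 13064 and 14211, against 99.9 to 184.0, 387 to 491 and 37.1 to 413.6 in the other active tumours. The B cell genes Ms4a1 and Cd79a reached 2499 and 5131 in the active group. Mammary epithelium markers summed to 54791 there, the lowest of the 12. The sedentary tumours of week 12 held skeletal muscle markers (8 of 8 listed) summing to 49065 to 107549, against 260 to 1105 in the active ones. What part these cells had in the class II values was not tested.

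At week 18 activity groups were not separated for any class II gene, and the spread lay within the groups. Cd74 measured 3502, 24043 and 16307 in sedentary and 6648, 14863 and 12014 in active tumours, with means of 14617 ± 10374 and 11175 ± 4171 (SD, n = 3). Sedentary replicate 1 was the lowest and sedentary replicate 2 the highest, so the active tumours lay inside the sedentary range. The log2 fold change was -0.07 ± 0.79, and it was -0.90 without sedentary replicate 1. H2-DMb1 was similar, at 167, 960 and 669 against 474, 726 and 611. Ciita measured 124, 597 and 557 in sedentary and 235, 606 and 454 in active tumours (log2 fold change 0.22 ± 0.73).

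By limma, 0 of 10 genes passed at week 18, with adjusted p-values of 0.895 to 0.988, as did 0% of all 18939 genes tested. No member had an unadjusted p under 0.05, against 5.97% of genes, and edgeR and DESeq2 also called 0 of the 10. The median over the set was -0.08 (3 genes higher, 7 lower), against 0.01 for all genes. It ran from -0.76 without sedentary replicate 1 to 0.47 without sedentary replicate 2. In sedentary replicate 1, dendritic cell markers (10 of 10 listed) summed to 663 and macrophage markers (10 of 10) to 9282, the lowest of the 12 tumours, against 1946 to 2097 and 18635 to 18849 in the other sedentary tumours of week 18. Their part in the low class II values was not tested.

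The effect of activity was next compared between weeks as an interaction over all 12 tumours. It was nominally lower at week 18 for 9 of 10 genes (median -0.78, all genes -0.02), led by H2-Ob at -2.48 ± 2.03, H2-DMb2 at -2.10 ± 1.83 and H2-Oa at -1.23 ± 1.76, and H2-DMb1 was the exception at 0.14 ± 0.80. None passed by limma (adjusted p = 0.778 to 0.969), where 0.0104% of genes did, none had an unadjusted p under 0.05, where 6.33% did, and edgeR and DESeq2 called 0. Without active replicate 3 of week 12 the median was -0.25.

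Between weeks within a group, class II levels were nominally lower at week 18 in both. In active tumours all 10 genes were nominally lower, with a median log2 fold change of -1.13 (all genes -0.03). Cd74 stood at -1.05 ± 0.51, H2-Ab1 at -0.997 ± 0.487, Ciita at -1.40 ± 0.68 and H2-DMa at -1.07 ± 0.49. For H2-Ob, H2-DMa and Ciita every week 18 value lay below every week 12 value, as for 12.6% of genes tested. Again 0 of 10 passed by limma (adjusted p = 0.426 to 0.513, 0% of genes called, no member under an unadjusted 0.05 against 12.1% of genes). Both count tests called 0 members. Without active replicate 3 of week 12 all 10 were still lower, with a median of -0.60.

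In sedentary tumours the 10 genes were nominally lower as well, with a median of -0.43 (all genes -0.01), led by H2-Oa at -1.002 ± 0.598 and H2-Ob at -0.54 ± 0.34. Limma called none (adjusted p = 0.982 to 0.984, 0% of genes), no member had an unadjusted p under 0.05 against 4.97% of genes, and edgeR and DESeq2 called none. Without sedentary replicate 1 of week 18, 8 of the 10 were higher at week 18 and the median was 0.30. Cd74 was then at 0.50 and H2-Ab1 at 0.31.

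**Figure D2:**
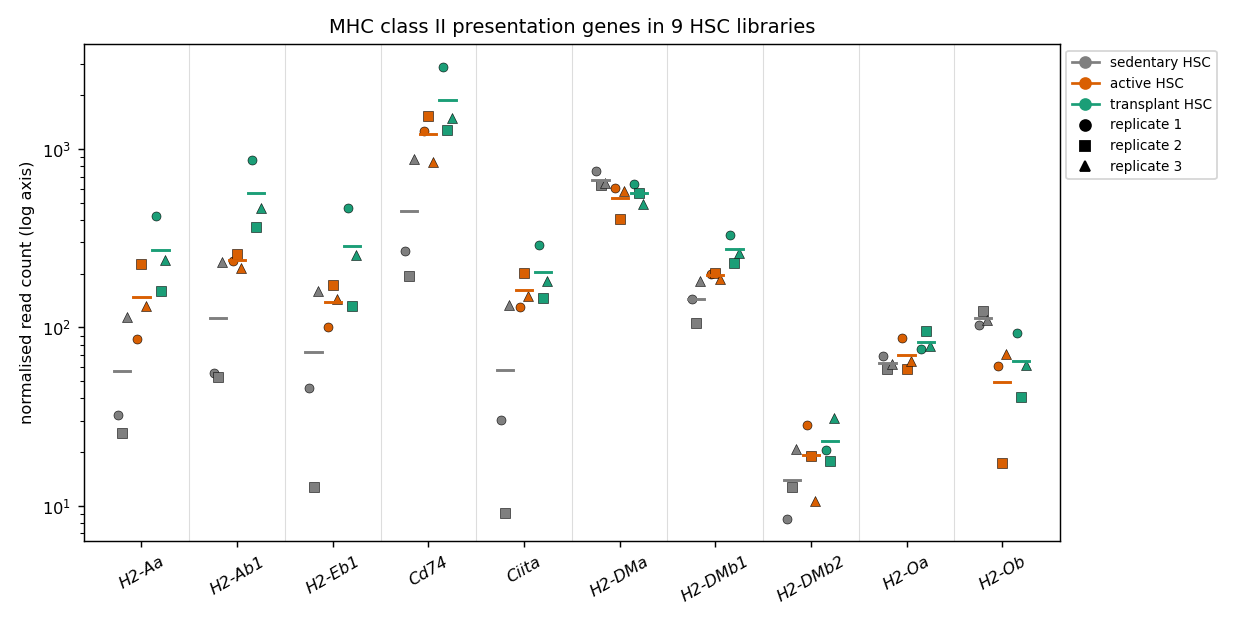
Normalized read counts of the 10 class II genes (log axis) in the 9 HSC libraries, scaled together, 1 point per library by group with bars at the group means. Active replicate 2 is drawn from the table of sedentary and active HSC. Sedentary replicates 1 and 2 are the lowest libraries for H2-Aa, H2-Ab1, H2-Eb1, Cd74 and Ciita, while H2-DMa and H2-Ob do not follow them.

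In HSC the classical chains, Cd74 and Ciita were nominally higher in active than in sedentary mice, though none passed the threshold. On 1 common scale for the 9 HSC libraries, Cd74 measured 269, 193 and 882 in sedentary, 1267, 1533 and 843 in active and 2898, 1277 and 1489 in transplant HSC. Sedentary replicates 1 and 2 were far below all other libraries, and sedentary replicate 3 lay just above active replicate 3. H2-Ab1 measured 55.8, 52.9 and 231.8 in sedentary, 237, 259 and 216 in active and 871, 365 and 467 in transplant cells. Here too sedentary replicate 3 fell among the active libraries, and all transplant libraries lay above both groups.

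H2-Aa followed with 32.1, 25.5 and 113.8, then 86.5, 227.1 and 131.7, and then 420, 160 and 238. Ciita measured 30.5, 9.11 and 134.0 in sedentary, 131, 202 and 151 in active and 289, 147 and 181 in transplant HSC, so the coactivator showed the same low pair of sedentary libraries. H2-Eb1 ranged from 12.8 to 159.3 in sedentary, from 100 to 173 in active and from 132 to 467 in transplant cells. For active replicate 2 the other deposited column gave 536 for Cd74, 158 for H2-Ab1, 79.8 for H2-Aa and 102 for Ciita, in each case below the column used.

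H2-DM and H2-O did not follow that pattern as a block. The editor chain H2-DMb1 measured 144, 106 and 181 in sedentary, 200.1, 200.9 and 186.5 in active and 328, 230 and 262 in transplant HSC, without overlap between any of the groups. With the other column, active replicate 2 stood at 148, inside the sedentary range. Its partner H2-DMa ran the other way, at 751, 627 and 642 in sedentary, 604, 408 and 583 in active and 635, 566 and 490 in transplant cells, but the other column of active replicate 2 held 804, above all sedentary libraries. H2-Ob was highest in sedentary HSC, at 103, 124 and 110, against 60.5, 17.5 and 71.0 in active and 93.4, 40.5 and 61.6 in transplant cells. No active or transplant library of H2-Ob reached the sedentary ones. H2-DMb2 (8.46 to 31.2 over the 9 libraries) overlapped between the groups, and H2-Oa ran from 58.3 to 69.4 in sedentary, 58.2 to 87.7 in active and 75.9 to 94.9 in transplant cells.

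Tested by limma in their own table, active against sedentary HSC gave log2 fold changes of 1.72 ± 0.60 for Cd74, 1.57 ± 0.65 for H2-Aa, 1.41 ± 0.59 for H2-Ab1, 1.54 ± 0.88 for H2-Eb1 and 2.18 ± 0.92 for Ciita. H2-Ob stood at -1.37 ± 0.53 and H2-DMa at -0.36 ± 0.20. Adjusted p-values were 0.475 to 0.758, so 0 of 10 passed, as did 0% of genes. Cd74 and H2-Ob had unadjusted p-values of 0.0305 and 0.0422 by limma, and 9.27% of genes were below 0.05. Both edgeR and DESeq2 called 0 of the 10. Without overlap, H2-DMb1 was higher (10.4% of genes) and H2-Ob and H2-DMa were lower (9.29% of genes). The median over the set was 0.95 (all genes 0.0037), and 0.70 with the other column of active replicate 2, which turned H2-Oa from 0.13 to -0.22. With replicates 1 and 2 alone, leaving out the deep libraries, it was 1.62, and leaving out 1 library at a time it ran from 0.53 without sedentary replicate 2 to 1.41 without sedentary replicate 3.

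Transplant HSC held nominally more class II RNA than active HSC, and 1 of the count tests called members. Their own table holds the other column of active replicate 2, with the lower class II values. In it the log2 fold changes were 1.39 ± 0.36 for H2-Ab1, 1.37 ± 0.40 for H2-Aa, 1.21 ± 0.49 for H2-Eb1 and 1.09 ± 0.44 for Cd74, then 0.64 ± 0.29 for Ciita and 0.61 ± 0.19 for H2-DMb1. H2-Aa, H2-Ab1, Cd74 and H2-DMb1 were higher in every transplant library than in every active one, as were 13.1% of genes. By limma 0 of 10 passed (adjusted p = 0.2003 to 0.8927), with 0.0513% of genes called. Of the 10, 5 had an unadjusted p under 0.05, against 17.8% of genes. DESeq2 called H2-Aa, H2-Ab1, H2-Eb1 and Cd74, with 8.32% of genes called, and edgeR called 0 of the 10.

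The authors' deposited table for this comparison gave the same 4 genes an adjusted p under 0.05, at 0.00704 for H2-Aa, 0.000838 for H2-Ab1, 0.0292 for H2-Eb1 and 0.0294 for Cd74. In all, 1080 of its 13636 genes were below 0.05. In the authors' deposited tables of the other 3 comparisons no member was below 0.05. There 223 of 13513 genes were below it for sedentary and active HSC, 204 of 19241 at week 12 and 41 of 19241 at week 18. The DESeq2 calls in transplant against active HSC depended on active replicate 2. With the column of the sedentary and active table in its place, DESeq2 called 0 of the 10 and 2 genes in all, against 1134. Limma then gave 0.58 for Cd74, 0.87 for H2-Aa, 1.16 for H2-Ab1 and 0.88 for H2-Eb1, and the median over the set moved from 0.62 to 0.50. Transplantation and week of sampling (week 14 against week 12) differ together here and cannot be told apart.

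The classical chains, Cd74 and Ciita were nominally highest in transplant against sedentary HSC, groups that do not hold the doubtful library. Activity of the cell donor, transplantation and week of sampling differ together between these groups and cannot be told apart. Log2 fold changes were 2.57 ± 0.66 for H2-Ab1, 2.44 ± 0.65 for H2-Aa, 2.42 ± 0.96 for H2-Eb1, 2.30 ± 0.63 for Cd74 and 2.50 ± 0.93 for Ciita. They were 0.95 ± 0.24 for H2-DMb1, 0.73 ± 0.36 for H2-DMb2, 0.38 ± 0.14 for H2-Oa, -0.26 ± 0.15 for H2-DMa and -0.85 ± 0.31 for H2-Ob. H2-Aa, H2-Ab1, Cd74, Ciita, H2-DMb1 and H2-Oa were higher without overlap, as were 20.3% of genes, and H2-Ob was lower without overlap, as were 18.4%.

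By limma 0 of 10 passed, although 11.7% of all genes did, and the smallest adjusted p-values were 0.0590 for H2-DMb1, 0.0597 for H2-Ab1, 0.0643 for H2-Aa and 0.0702 for Cd74. Of the 10, 8 had an unadjusted p under 0.05, against 31.7% of genes. The same 4 genes were called by edgeR (19.3% of genes called) and by DESeq2 (23.8% of genes called). Without sedentary replicate 3, limma called 5 of the 10, adding Ciita, beside 11.2% of all genes. The median over the set was then 2.04 against 1.62 with all libraries. It was 1.14 without sedentary replicate 2. This comparison shares its sedentary libraries with that of active against sedentary HSC and its transplant libraries with that of transplant against active HSC, so the 3 are not independent.

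**Figure D3:**
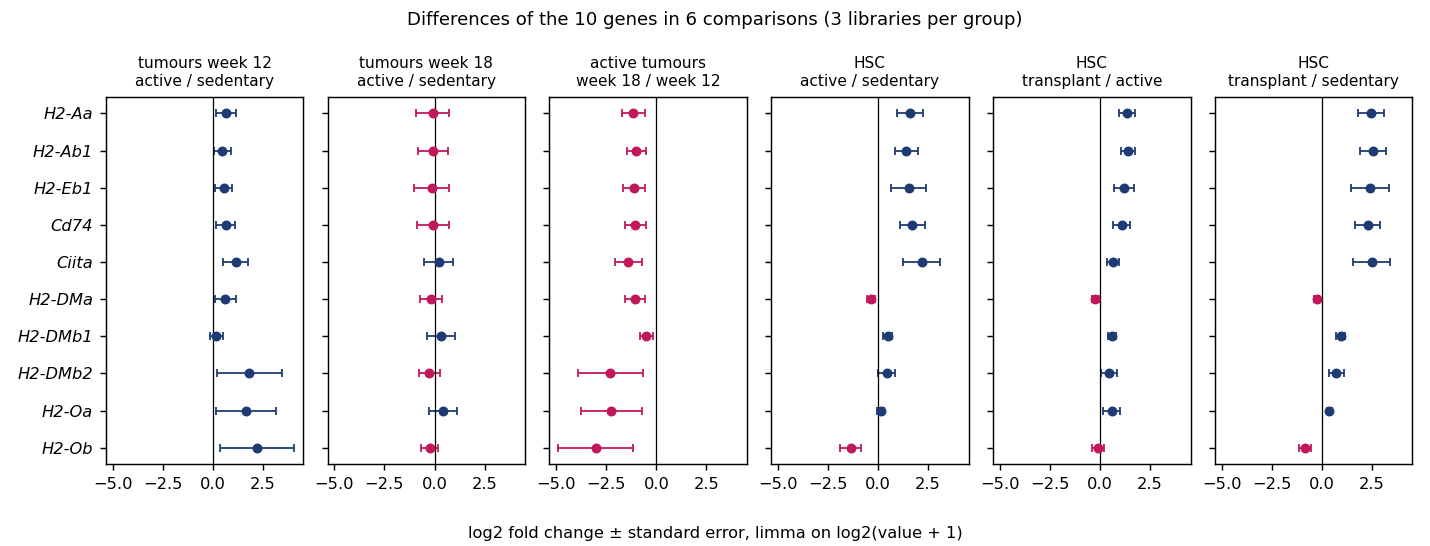
Log2 fold changes with standard errors of the 10 class II genes in 6 of the 8 comparisons, 3 of tumours and 3 of HSC, 1 point per gene and comparison, with a line at 0, blue points above 0 and red points below. The classical chains, Cd74 and Ciita lie together between 2.30 and 2.57 for transplant against sedentary HSC, while H2-DMa and H2-Ob lie below 0.

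The make-up of the class II RNA within a library is independent of scaling. The 10 genes took 0.0367% to 0.407% of all reads in tumours and 0.00408% to 0.0202% in HSC. Cd74 exceeded H2-Ab1 per kilobase by a factor of 1.58 to 2.01 in the tumours and 2.74 to 5.09 in HSC, where the highest, active replicate 2, stood at 2.91 in its other column. H2-DMa was 5.27% to 11.0% of H2-Aa per kilobase in tumours. In HSC it exceeded H2-Aa in every library, at 384% to 1672% in sedentary, 122% to 475% in active and 103% to 241% in transplant cells. The other column of active replicate 2 gave 685% in place of 122%, inside the sedentary range.

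H2-Oa and H2-Ob together came to 1.83% to 4.56% of the H2-DM genes per kilobase in 11 tumours, to 51.6% in active replicate 3 of week 12, and to 14.9% to 21.6% in HSC. The other column of active HSC replicate 2 gave 8.39% in place of 14.9%. With either column the share in every HSC library lay above that in those 11 tumours. H2-DMb2 took 4.10% to 12.1% of the reads of both beta chains in 11 tumours and 5.42% to 12.4% in HSC. In active replicate 3 of week 12 it took 68.8% (2288 of 3326 reads, 95% exact binomial interval 67.2% to 70.4%, counting error only).

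**Figure D4:**
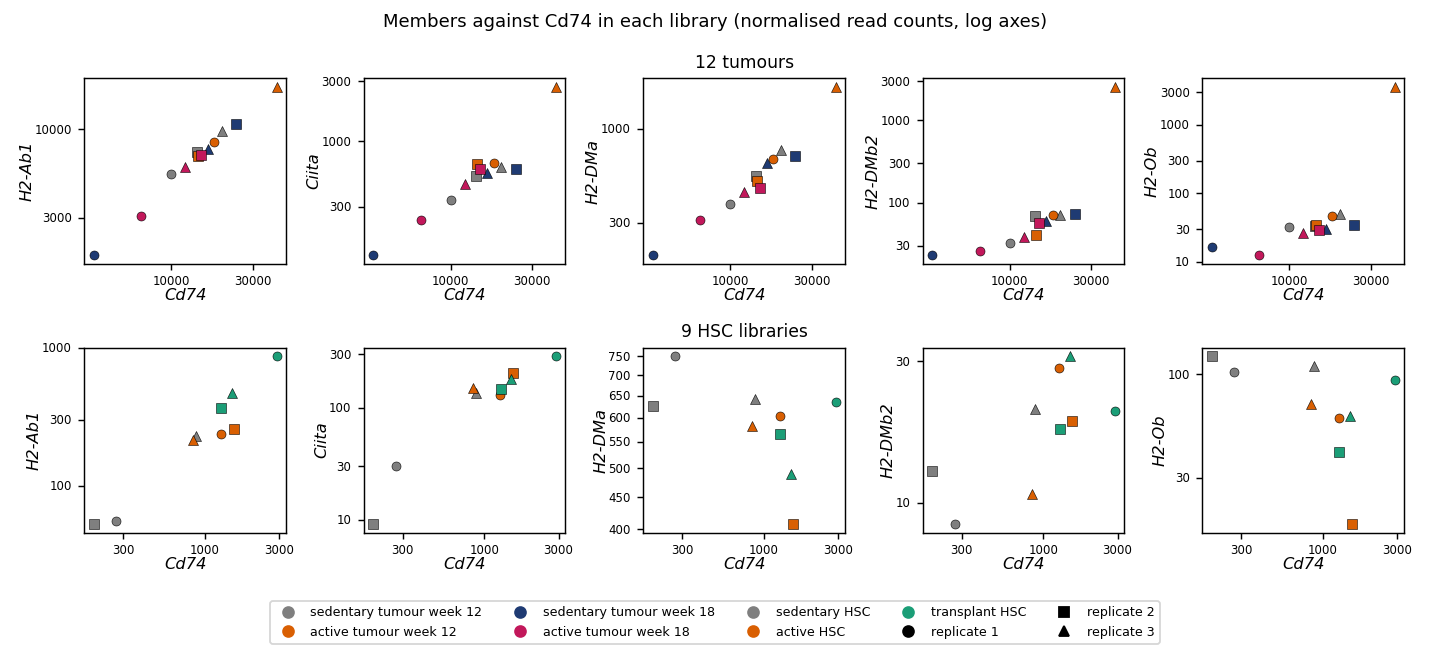
Normalized read counts of H2-Ab1, Ciita, H2-DMa, H2-DMb2 and H2-Ob (vertical log axes) against Cd74 (horizontal log axis), 1 point per library, for 12 tumours (upper row) and 9 HSC libraries (lower row). H2-Ab1 follows Cd74 closely in both tissues, and H2-DMa follows it in tumours but not in HSC.

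Correlations with Cd74 were computed on log2 values over libraries, 9 relations in each tissue, with permutation p-values adjusted by the Benjamini-Hochberg method. Across the 12 tumours, Pearson's r was 0.99 for H2-Aa, 1.00 for H2-Ab1, 0.99 for H2-Eb1, 0.97 for H2-DMa, 0.95 for Ciita and 0.92 for H2-DMb1. Spearman's rho was 0.96, 0.98, 0.99, 0.97, 0.85 and 0.86. By the permutation test the adjusted p-values were 1.80e-05 for the r of the first 5, from the smallest p these permutations can give, 6.00e-05 for H2-DMb1, and 3.00e-05 to 0.000964 for rho. The tumours farthest from the median of Cd74 were active replicate 3 of week 12 and sedentary replicate 1 of week 18. Without them r was 0.80 to 0.99 for these 6 genes. Within week 12 and within week 18, r was 0.78 to 1.00.

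The remaining genes held less closely to Cd74 in tumours. H2-DMb2 had r = 0.77 (rho 0.96), rising to 0.91 without those tumours, and H2-Ob had r = 0.71 (rho 0.85), rising to 0.81, with permutation p-values after adjustment of 0.00690 and 0.0215 for r and of 3.00e-05 and 0.00103 for rho. H2-Oa had r = 0.62 (rho 0.33, adjusted permutation p = 0.0554 and 0.297), which turned to -0.23 without them, so its relation rested on those tumours.

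Across the 9 HSC libraries, r with Cd74 was 0.97 for H2-Ab1, 0.96 for H2-Aa, 0.96 for Ciita, 0.95 for H2-DMb1 and 0.94 for H2-Eb1 (rho 0.95, 0.92, 0.88, 0.93 and 0.85), with adjusted p-values by the exact permutation test of 0.000604 to 0.00102 for r and of 0.00317 to 0.0109 for rho. Without sedentary replicates 1 and 2, the farthest from the median, r was 0.78 to 0.90. With the other column of active replicate 2, r for these 5 genes was 0.93 to 0.98. H2-DMb2 (r = 0.69), H2-Oa (0.44), H2-DMa (-0.49) and H2-Ob (-0.49) were not past the threshold (adjusted exact permutation p = 0.0567 to 0.236). H2-DMa, the editor's alpha chain, was thus tied to Cd74 in tumours at r = 0.97 and not in HSC, a difference that was not tested.

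Markers of other cells were set against Cd74 in the same way, with the mean log2 value of each list (9 lists in tumours, 8 in HSC). In tumours r was 0.92 for dendritic cells, 0.91 for macrophages, 0.91 for the HSC list, 0.78 for T cells and 0.75 for neutrophils, with rho of 0.87, 0.89, 0.80, 0.76 and 0.54. The adjusted permutation p-values were 0.000495, 0.000360, 0.00108, 0.0128 and 0.0130 for r, and 0.00171, 0.00171, 0.00753, 0.0117 and 0.114 for rho. For lymph node stroma r was 0.70 (rho 0.57, adjusted permutation p = 0.0333 and 0.09999). Without the 2 farthest tumours r was 0.90, 0.85, 0.69, 0.83, 0.13 and 0.45, so the relations with neutrophil and lymph node lists rested on those tumours. B cell markers had r = 0.50 (rho 0.09), which became -0.07 without them, and mammary epithelium and skeletal muscle had 0.17 and 0.10, none past the threshold.

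In HSC, r with Cd74 was 0.95 for the macrophage list (rho 0.97, adjusted exact permutation p = 0.00126 and 0.00132), of which 7 of 10 genes were listed, and 0.87 without the 2 farthest libraries. It was 0.77 for the neutrophil list (rho 0.80, adjusted exact permutation p = 0.0404 and 0.0553), and 0.68 without them. With the other column of active replicate 2 these were 0.95 and 0.81. The other 6 lists were not past the threshold. The macrophage list summed to 4358 to 4874 in sedentary, 5079 to 9910 in active and 5677 to 9345 in transplant HSC, and to 3788 in the other column of active replicate 2. Of its 7 listed genes, Cd68, Csf1r, C1qb and C1qc lay higher in transplant than in sedentary HSC without overlap, and Mrc1, Cx3cr1 and Cd163 overlapped. C1qb ran from 0 to 4.14 in sedentary, 1.71 to 30.6 in active and 27.9 to 33.6 in transplant HSC, while Cd163 ran from 8.46 to 18.2, 0 to 12.4 and 1.46 to 8.86. The dendritic list (8 of 10 listed) summed to 2790 to 3101, 296 to 2051 and 311 to 590 in the 3 groups, and to 2594 in the other column of active replicate 2. Flt3, which early progenitors also express, made up most of it, at 2453 to 2778 in sedentary and 83.6 to 266.3 in transplant cells. Without Flt3 the list summed to 323 to 465 in sedentary and 228 to 379 in transplant HSC, which overlap. Of the 8 listed dendritic genes, 2 lay higher in transplant than in sedentary HSC without overlap, 4 lay lower and 2 overlapped. The higher ones were Clec9a (0 to 1.03 against 8.44 to 39.4) and Clec10a (45.6 to 75.0 against 117 to 209). The lower ones were Flt3, Zbtb46, Siglech and Ccr7, the last at 109 to 187 in sedentary and 7.60 to 38.4 in transplant cells. The B cell genes Ms4a1 and Cd79a were not listed in the HSC tables, but 4 of the 10 B cell markers were. Of these, Cd79b ran from 180 to 259 in sedentary, 62.6 to 210 in active and 100 to 155 in transplant HSC. What part other cells in the sort had in the HSC values was not tested.

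The wider pathway was read from 5 lists of 59 genes, of which 54 were tested in tumours and 51 in HSC. In the tumours limma called none of the 54 in any comparison, and 0 at week 12 and 0 at week 18 had an unadjusted p under 0.05. Between weeks 0 had in sedentary and 2 in active tumours, and 1 in the interaction. Of the same genes edgeR called 0 in each of these comparisons, and DESeq2 called 0 except in active tumours between weeks, where it called Rfxap as higher and Irf4 as lower (4.62% of all genes were called), genes named here after their values were seen. The 8 genes of costimulation and class II recognition were all nominally higher in active tumours at week 12 (median 1.07, all genes 0.01). Without active replicate 3, the tumour with the high lymphocyte markers, 6 of the 8 were higher and the median was 0.24. In the whole group Lag3, a class II receptor on T cells, stood at 1.03 ± 0.52 (adjusted p = 0.970 by limma). The genes of MHC class I had a median of 0.14 at week 12, which was -0.17 without active replicate 3, and of 0.54 at week 18, where B2m, their shared light chain, stood at 0.89 ± 0.37 (adjusted p = 0.824 by limma). H2-Eb2, the neighbour of H2-Eb1, had a wide spread at week 12, with a mean of 271 ± 448 (SD, n = 3) in active and 12.1 ± 6.98 in sedentary tumours.

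In HSC, limma and edgeR called pathway genes in 1 comparison, transplant against sedentary, and DESeq2 called some in transplant against active as well. In transplant against sedentary HSC there were 8 higher and 2 lower of 51 by limma, 14 and 2 by edgeR and 16 and 4 by DESeq2. That is 19.6%, 31.4% and 39.2% of the 51, beside 11.7%, 19.3% and 23.8% of all genes. The limma calls depended on single libraries. Without sedentary replicate 1 or transplant replicate 2 they were 0 higher and 1 lower (1.96% of the 51 each, beside 1.96% and 1.84% of all genes). Without sedentary replicate 2 or transplant replicate 1 they were 1 and 1 (3.92% each, beside 1.48% and 3.55%). Without sedentary replicate 3 they were 5 and 1 (11.8% beside 11.2%), and without transplant replicate 3 they were 8 and 2 (19.6% beside 12.9%). Irf8 was called each time 1 library was left out. Of the promoter factors and inducers, Ifngr1, a chain of the interferon gamma receptor, rose by 0.96 ± 0.13 (adjusted p = 0.0158 by limma), and Irf8, a regulator of myeloid and dendritic fate, decreased by 1.47 ± 0.15 on the log2 scale (adjusted p = 0.00917 by limma). Nfya, a subunit of the factor that binds the Y box, decreased by 0.50 ± 0.11 (adjusted p = 0.0404 by limma). The median of that list was 0.09.

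Of 13 antigen processing genes, 12 were nominally higher and 1 lower, with a median of 0.71. Limma called 4 of these genes as higher and 0 as lower. They included the endosomal proteases Ctsl at 0.93 ± 0.15, Ctss, which trims the invariant chain, at 0.80 ± 0.16, and Ctsd at 0.71 ± 0.15 (adjusted p = 0.0230, 0.0331 and 0.0389 by limma). The costimulatory genes Cd80 and Cd40 rose by 1.23 ± 0.19 and 1.14 ± 0.23 from means of 8.14 ± 2.09 and 5.40 ± 1.03 (SD, n = 3), and H2-Q7, a class I gene, rose by 0.89 ± 0.16 (adjusted p = 0.0199, 0.0347 and 0.0264 by limma). Neither edgeR nor DESeq2 called Cd80 or Cd40, and both called the other genes named. Of the 5 other genes of the class II locus that were tested, none passed. In active against sedentary HSC none of the 51 passed and 5 had an unadjusted p under 0.05, and in transplant against active HSC none passed and 9 did. These are 9.80% and 17.6% of the 51, beside 9.27% and 17.8% of all genes. In these comparisons edgeR called none, and DESeq2 called 0 in the former and 6 higher and 3 lower in the latter, where it called 8.32% of all genes. With active replicate 2 taken from the table of sedentary and active HSC, DESeq2 called 1 of the 51, H2-Q7. By limma, Irf8 had the smallest p of the 9, at -1.25 ± 0.18 with an adjusted p of 0.126.

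The genes whose pattern was most like class II were ranked by r with the mean log2 value of H2-Aa, H2-Ab1, H2-Eb1 and Cd74, as a description. Among 13628 other genes over the 12 tumours they were Themis2 (0.98), Cd33 (0.97), Myo1f (0.96), Cybb (0.96), Nod1 (0.96) and Apol6 (0.95). Ranked in the same way among 13634, H2-DMa came at place 5, Ciita at 22 and H2-DMb1 at 62, with H2-DMb2, H2-Ob and H2-Oa at 915, 1274 and 2028. Over the 9 HSC libraries (10825 genes) they were B630005N14Rik (0.99), Cdc42ep4 (0.98), Nuak2 (0.98), Cdk2 (0.97), Cenpl (0.97) and Tnfrsf26 (0.97), and H2-DMb1 and Ciita held places 6 and 16 of 10830. With the other column of active replicate 2 the first 6 were Cdc42ep4, Tnfrsf26, Fbxw11, Kbtbd7, Rffl and B630005N14Rik. In the column used, H2-DMb2, H2-Oa, H2-Ob and H2-DMa came at 2323, 3607, 7252 and 7499.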

How the data were processed

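RNA was sequenced in 12 mammary tumours and 9 HSC libraries from stranded mRNA kits. The authors deposited a normalized signal per gene, and their files also hold p-values before and after adjustment, the log2 fold change, and a statistic of the test, here called a score. The values of each library were whole multiples of 1 step (100% within 0.1 read), so they are gene counts divided by 1 factor per library. The build was mm10, per the submitters' processing notes, and the label descriptions name DEBrowser. The aligner, counter and annotation are not given in the sources used here. The members and gene lists were chosen with earlier results of these data known. All 10 members are described. Of each pathway list, up to 3 genes past the threshold with the smallest p are named, or the 1 smallest where none passes, and some such genes are omitted for length.

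Since the values are normalized, limma 3.58.1 in R 4.3.3 was fitted to log2(value + 1) over all genes whose mean reached 1 in either group, with Benjamini-Hochberg adjustment over all genes tested and a threshold of 0.05. Fold changes on this scale understate those of low genes. The p-values measure the spread between libraries labelled as biological replicates. Comparisons across tables used recovered reads joined on symbol and scaled by the median of ratios, which gave the deposited tumour values back (largest difference 0%). Alternatives were edgeR 4.0.16 and DESeq2 1.42.0 on recovered reads, limma-voom, TMM scaling, pseudocounts of 0.1 and 10, other filters, the replicate number as a block, leaving out libraries, and the other column of active HSC replicate 2 (with DESeq2, and for levels, ratios, markers and correlations, chosen after seeing the data). The procedure was tested on simulated data. Deviations of same-numbered libraries correlated above 0.1 in all 3 pairs at week 18 (0.185, 0.201 and 0.189) and for active and transplant HSC (0.110, 0.124 and 0.309), the rule used here for pairing. Sequences came from RefSeq and lengths from GENCODE M21. Levels per kilobase used the longest annotated coding transcript. Reads carried no molecular identifiers, so intervals cover counting error only. No protein sequence was used here.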

Additional observations from a re-analysis of the deposited data

How the results depend on the processing

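With 3 libraries a group, 1 library decided many directions. Of 1330 log2 fold changes of single members under an alternative, 1249 kept their direction and their side of the threshold, 31 passed it and 50 changed sign, 39 of these by leaving out 1 library. No member was called in any tumour comparison or in active against sedentary HSC under the alternatives run. In transplant against active HSC, DESeq2 called 4, and no other alternative called any. In transplant against sedentary HSC, where limma called 0, there were 4 with a pseudocount of 10, 2 with a filter at a mean of 10, 4 with edgeR, 4 with DESeq2, 4 with limma-voom and 4 with replicates 1 and 2 alone, and from 0 to 5 when leaving out 1 library. Over all genes, the pseudocount gave 2111 calls of 13329, the filter 1886 of 12469 and limma-voom 2177 of 13329. Replicates 1 and 2 alone gave 2198 of 13209. The cause was not tested. With the replicate number as a block, limma called 0 members in all 8 comparisons, and the block changed no member's call. Over all genes it moved transplant against sedentary HSC from 1553 to 95 calls and week 12 from 99 to 0. In both, same-numbered libraries did not meet the rule used here for pairing. It moved the interaction from 2 to 69, where the tumours of week 18 met that rule and those of week 12 did not. Transplant against active HSC, where the rule was met, went from 7 to 0. The labels themselves name no pairs, and in HSC replicate 3 of each group is also the deep library. Over all genes DESeq2 called 208 at week 12, 52 at week 18 (limma 0), 172 in the interaction, 172 in sedentary and 886 in active tumours between weeks (limma 0 in both), 274 in active against sedentary HSC (limma 0), 1134 in transplant against active and 3167 in transplant against sedentary HSC, where edgeR called 2566. Leaving out 1 library gave 9 to 71 calls at week 12, 0 to 79 in transplant against active and 197 to 1721 in transplant against sedentary HSC. DESeq2 with the other column of active replicate 2, run after seeing the data, called 0 members in both comparisons of active HSC.

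Signs turned for H2-DMb1 in the interaction (-0.19 by edgeR, -0.21 by DESeq2), for Cd74 in sedentary tumours between weeks (0.018 by edgeR, 0.0088 by DESeq2), for H2-DMb2 in transplant against active HSC with replicates 1 and 2 alone (-0.065), and with the other column of active replicate 2 for H2-Oa in active against sedentary HSC (-0.22) and for H2-Ob (0.53) and H2-DMa (0.10) in transplant against active HSC (by DESeq2 -0.070, 0.37 and 0.078). Leaving out 1 library at a time gave these ranges where the sign turned. At week 12: H2-DMb2 -0.020 to 2.96, H2-Oa -0.043 to 2.59 and H2-DMb1 -0.048 to 0.45. At week 18: Cd74 -0.90 to 0.49, H2-Aa -0.92 to 0.51, H2-Ab1 -0.84 to 0.45, H2-Eb1 -0.98 to 0.45, Ciita -0.52 to 0.61, H2-DMa -0.75 to 0.17, H2-DMb1 -0.43 to 0.83, H2-DMb2 -0.76 to 0.039, H2-Oa -0.040 to 1.03 and H2-Ob -0.56 to 0.11. Interaction: H2-DMb1 -0.61 to 0.65 and H2-Oa -2.16 to 0.48. Sedentary tumours between weeks: Cd74 -0.88 to 0.50, H2-Aa -1.0005 to 0.43, H2-Ab1 -0.97 to 0.31, H2-Eb1 -1.007 to 0.42, Ciita -0.86 to 0.27, H2-DMa -0.59 to 0.33, H2-DMb1 -1.13 to 0.13 and H2-DMb2 -0.56 to 0.29. HSC: H2-Oa -0.045 to 0.24 for active against sedentary, and H2-Ob -0.39 to 0.21 for transplant against active. The median of the MHC class I genes ran from -0.17 to 0.35 at week 12 and from 0.34 to 0.81 at week 18, and that of the costimulation genes at week 12 from 0.24 to 1.71.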
